A study of Drosophila melanogaster with 18 samples.

Results

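The regions described here are the stretches of the unplaced scaffold collection Uextra that carried the highest S9.6 signal in a DRIP-seq experiment on S2 cells, an embryo-derived line of Drosophila melanogaster. A region was taken when it lay on Uextra, when its mean normalised read count over the libraries (the base mean) was at least 1000, and when its RNH- level in hrp48 cells exceeded that in LacZ cells by at most 1 log2 unit. There were 573 such regions among the 6477 of the table for LacZ cells, 368 among the 2980 of the table for hrp36 cells and 664 among the 7735 of the table for hrp48 cells. They made up 28.3%, 17.5% and 11.6% of the Uextra regions of these tables. The third condition removed 0 regions, since the largest hrp48 minus LacZ difference among Uextra regions with this base mean was 0.68. The base mean therefore chose the regions by itself, and signal height is a description here and not a result. Over the 3 tables these regions fell into 673 separate places, of which 312 met the rule in each table.

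The study compared S2 cells labelled LacZ (a bacterial gene, taken as the control), hrp36 and hrp48, the last 2 with a knockdown of the hnRNP protein genes Hrb87F and Hrb27C. Beside the name of the line, the labels mention a primary culture, a late stage and 20 to 24 hours. These hours are not read here as the age of the cultured cells. The labels give neither the knockdown reagent nor its duration, and how far the proteins were depleted was not analysed here. Each cell group gave 2 S9.6 libraries marked RNH- and 2 marked RNH+, read here as without and with RNase H, and 2 libraries of 10% input that were not analysed here. All 18 samples come from 1 line, and whether the pairs are separate cultures is not stated, so a p-value covers no more than how these libraries vary, possibly for technical reasons alone. Library depth is unknown.

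S9.6 is an antibody against RNA-DNA hybrids, the structures formed where a transcript pairs with its template and leaves an R-loop. RNase H cuts the RNA strand of such hybrids, so a hybrid is expected to lose S9.6 signal after the treatment. Uextra of the dm3 build strings together small scaffolds that could not be placed on a chromosome, and such scaffolds are rich in transposable elements, satellite DNA and other repeats of heterochromatin. The hnRNP proteins coat nascent transcripts and take part in their splicing and packaging. Reads from a repeat can fit many copies, and their treatment is not given in the sources at hand, so neighbouring or similar regions may share reads and are not independent of each other.

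The regions were short and dense. Their median length was 421 bases in the LacZ table (range 183 to 2872), against 2567 for chromosome arm regions of the same minimum base mean. They covered 303.2 kb, which is 7.32% of the length listed in that table, and held 54.2% of its summed base mean. Per 100 bases they carried a base mean of 1272, against 144.3 at those arm regions. The shares of the summed base mean were 48.2% over 247.5 kb in the hrp36 table and 56.8% over 317.3 kb in the hrp48 table. The input libraries were not used, so the number of copies of these sequences in the S2 genome was not set against these levels.

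The regions were crowded at the far end of Uextra, a property that the rule did not use. Of the 573 regions of the LacZ table, 271 (47.3%) started at or beyond 28 Mb, in the last part of a sequence whose listed regions end at base 29004384, whereas 11 of the 1455 other Uextra regions (0.756%) did. Before 26 Mb each megabase held 4 to 15 of the high-signal regions. That end part held 318 of 664 (47.9%) in the hrp48 table and, in the hrp36 table, it held 135 of 368 (36.7%), against 0.516% and 1.32% of their other Uextra regions. Joining regions with gaps under 1 kb left 478, 340 and 529 stretches in the LacZ, hrp36 and hrp48 tables.

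The regions were divided into bands by their response to RNase H, with the same condition set for all 3 cell groups. The response is here the authors' RNH+ group mean minus the RNH- group mean, in log2 units. In the hrp48 table, which held the most regions, 465 of 664 (70.0%) had a higher level with RNH+ in each cell group, a set called the upper band. Another 61 regions (9.19%) had a level lower by at least 1 log2 unit with RNH+ in each cell group, called the lower band. The other 138 (20.8%) lay between. Over all regions of that table these shares were 15.6%, 5.83% and 78.6%. The borders of the bands were chosen after the values were seen, and within 0.25 of them lay 12 regions (lower) and 34 (upper). The bands are a description and carry no test of their own. The LacZ table held 26 regions (4.54%) of the lower band, 135 (23.6%) between and 412 (71.9%) of the upper band. Over all its regions 3.57% met the definition of the lower band and 61.2% lay between. In hrp36 cells' own table it was 64 (17.4%), 143 (38.9%) and 161 (43.8%), against 13.8%, 64.1% and 22.1% of all its regions. Among Uextra regions of lower signal in the LacZ table, 310 of 1455 (21.3%) were higher with RNH+ in all cell groups, and among chromosome arm regions with a base mean of at least 1000 it was 18 of 220 (8.18%). Over all regions of the LacZ table it was 2285 of 6477 (35.3%). Since the base mean counts the RNH+ libraries too, a rise with RNH+ itself lifts a region toward the signal border. The difference between high-signal and lower-signal regions is thus partly fixed by the rule.

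**Figure D1:**
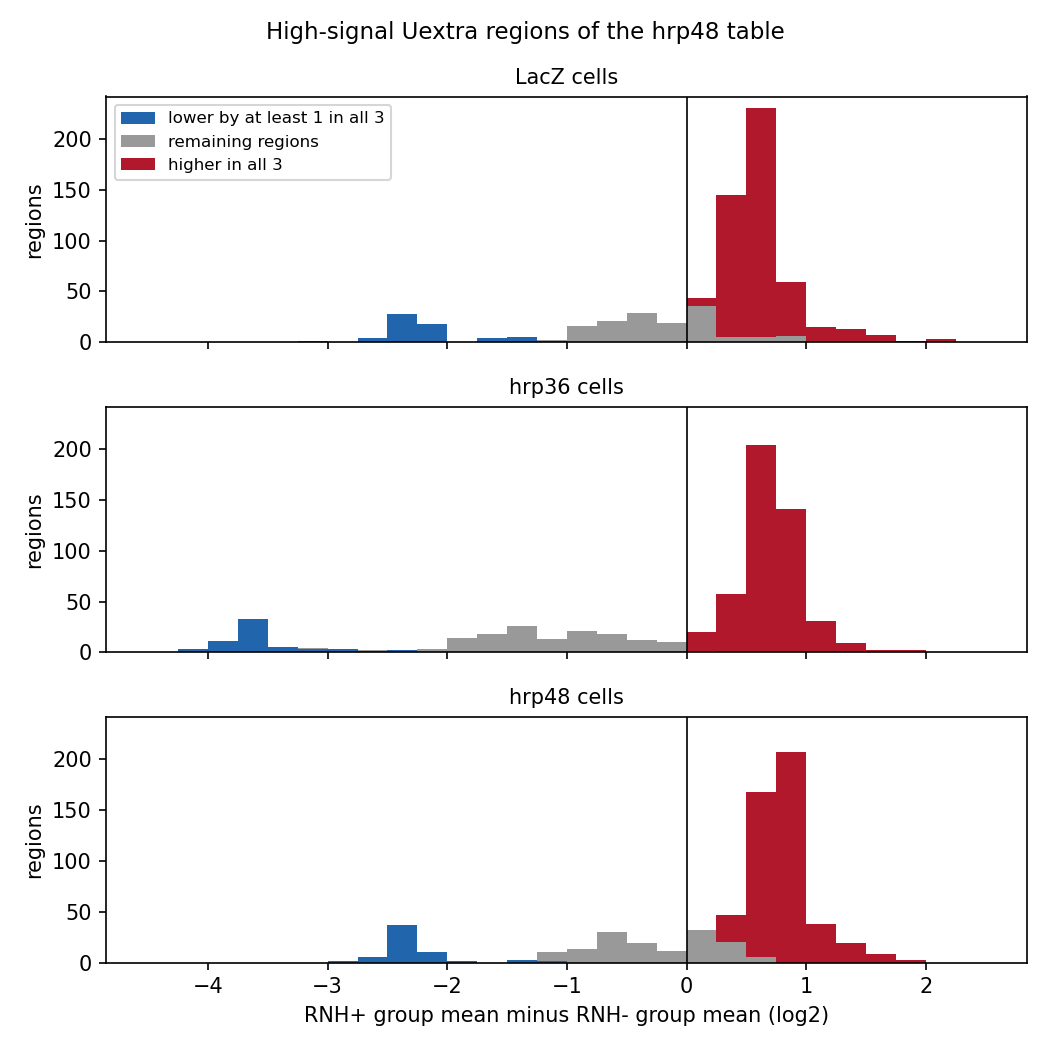
Number of high-signal Uextra regions of the hrp48 table (664) by RNH+ minus RNH- group mean (log2, bins of 0.25) in LacZ, hrp36 and hrp48 cells, stacked by band. The lower band lies around -2.26 for LacZ, -3.61 for hrp36 and -2.34 for hrp48 cells, while the upper band keeps near 0.59 to 0.79 in all 3.

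Regions of the upper band had the highest base means. Their median base mean in the hrp48 table was 5679, against 2187 in the lower band and 1437 between. The base mean also counts the RNH+ libraries, so this order is partly fixed by how the bands were defined. In the upper band the RNH- medians were 11.91 for LacZ, 11.98 for hrp36 and 12.14 for hrp48 cells. Those of the lower band were 11.33, 12.46 and 11.33. Of the 465 upper band regions, 281 (60.4%) started at or beyond 28 Mb. Their median response was 0.59 in LacZ cells (quartiles 0.47 and 0.70), 0.71 in hrp36 cells (0.61 and 0.82) and 0.79 in hrp48 cells (0.70 and 0.90). The quartiles thus span about 0.2 log2 units, whereas the authors' standard error of a single region's log2 fold change had a median of 0.47 in this band. These are unlike measures, since the former is of group means within a band limited by its definition and the latter of the authors' fold change. No conclusion is drawn from setting them side by side. Of the 465 regions, 31 were called higher in hrp48 cells and 0 lower by the authors' deposited table (DESeq2, adjusted p under 0.05). The 31 are 6.67% of the band, where 5.71% of all regions of that table were called higher. Among all regions of that table that met the definition of the upper band, 408 of 1204 (33.9%) were called higher. The high-signal regions of the band were thus called less often than regions of any signal with the same definition. The band was chosen by this response, which fixes the 0.

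Regions of the lower band had much less signal with RNH+ in each cell group, by the way they were chosen. Their median level in the hrp48 table went from 11.33 with RNH- to 9.15 with RNH+ in LacZ cells. In hrp36 cells it went from 12.46 to 8.93, and hrp48 cells had 11.33 and 9.14. The RNH+ medians of the 3 cell groups thus lay between 8.93 and 9.15, and the RNH- median was higher in hrp36 cells than in the others. Region by region, the RNH- level was higher in hrp36 than in LacZ cells by a median of 1.17 (0.60 over all regions of the table). In hrp48 cells it was higher than in LacZ cells by 0.06 (0.45 over all regions). The RNH+ level was lower in hrp36 than in LacZ cells by a median of 0.21 (a difference of -0.21). Of the 61 regions, 60 (98.4%) were called lower in hrp48 cells in the authors' deposited table. All 64 of the lower band of the hrp36 table were called lower in hrp36 cells. Among regions of any signal that met the definition of the lower band, it was 419 of 451 (92.9%) and 411 of 411 (100%). Such calls were thus not particular to the high-signal regions. Since the band was chosen by this response, those counts describe it and do not test it.

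The regions between the bands were longer and closer to the base mean border. Their median length in the hrp48 table was 665.5 bases, against 333 in the upper and 340 in the lower band, and 16 of 138 (11.6%) started at or beyond 28 Mb. Their RNH- medians were 10.45 for LacZ, 11.22 for hrp36 and 10.37 for hrp48 cells, and their RNH+ medians 10.18, 9.98 and 9.996. Here too the RNH- level of hrp36 cells stood above the other 2, by a median of 0.70 over LacZ cells. Over all regions of that table this median was 0.60. Regions outside Uextra with a base mean of at least 1000 had RNH- medians of 12.31 for hrp36 and 11.42 for LacZ cells. A higher hrp36 level was thus not particular to these bands. The median response of the regions between the bands was -0.23 for LacZ, -1.09 for hrp36 and -0.28 for hrp48 cells.

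**Figure D2:**
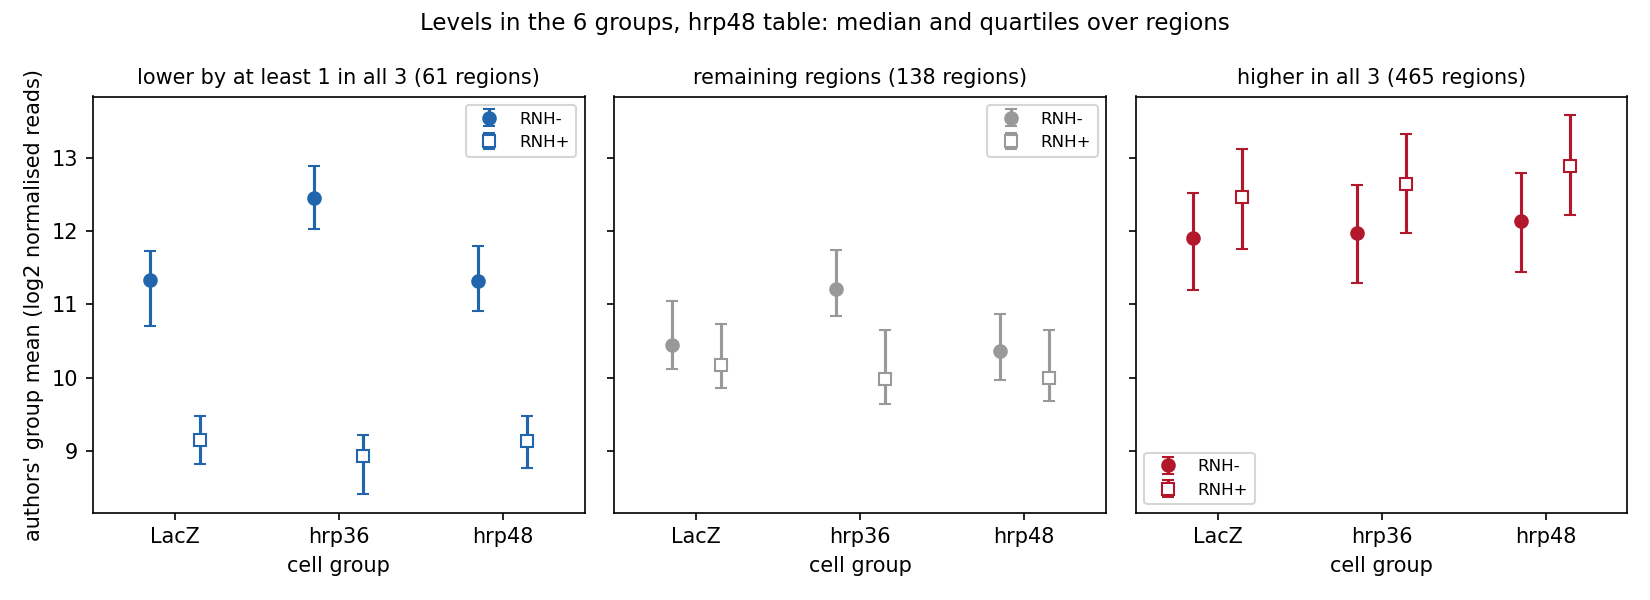
Authors' group means (log2 normalised reads) of the high-signal Uextra regions of the hrp48 table, as median (symbol) and quartiles over regions (bars), for LacZ, hrp36 and hrp48 cells with RNH- (filled) and RNH+ (open). In the lower band (61 regions) and between the bands (138) the hrp36 RNH- median is the highest of the 6, and in the upper band (465) each RNH+ median is above its RNH- median.

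The authors' deposited table called 26 of the 573 regions lower and 21 higher with RNH+ in LacZ cells, with an adjusted p under 0.05 from DESeq2. That is 4.54% and 3.66%, against 9.79% lower and 4.88% higher over all regions of the table. The share of falls was thus below that of the table as a whole, and the rises were near the background. It was above that of regions outside Uextra with a base mean of at least 1000, of which 2.43% were called lower, and with a base mean border of 500 it was 9.66%, near the share of the table. The median log2 fold change was 0.47 (quartiles 0.21 and 0.59), with a median standard error of 0.47, beside -0.06 over the whole table. The standard error was larger than the 0.34 of the whole table and the 0.42 of regions outside Uextra with a base mean of at least 1000, so the regions of highest signal were not those with the smallest error. A Wald test with the authors' standard errors, adjusted by Benjamini-Hochberg over the table, called 22 regions lower and 10 higher (6.14% and 2.67% of all regions). Once fold changes were centred on the arm median of the table (-0.09), the numbers were 19 and 12 (5.02% and 3.66% of all regions). The RNH- level of LacZ cells also entered the rule, through the condition that removed no region.

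The called falls of LacZ cells all lay at high-signal regions with a base mean below 8000, where called rises occurred as well. Of the 133 with a base mean from 1000 to 2000, 13 were called lower and 7 higher. Of the 111 from 2000 to 4000 it was 6 and 6, and of the 186 from 4000 to 8000 it was 7 and 3. Shares over all regions of these brackets were not computed. In the bracket from 8000 to 16000, 0 of 105 were called in either direction in the authors' deposited table from DESeq2, with a median log2 fold change of 0.53. At or above 16000, 5 of 38 were called higher and 0 lower. The largest called fall lay at Uextra 28630631 to 28631053, where LacZ cells went from 11.31 to 8.83, hrp36 cells from 12.24 to 8.56 and hrp48 cells from 11.22 to 8.85. All 3 RNH+ levels of that region were below all 3 RNH- levels. The largest called rise was at 7259054 to 7259764, where LacZ cells went from 8.78 to 10.95. There hrp36 cells had 9.30 without and 9.99 with RNase H, and hrp48 cells 8.60 and 10.23. Its log2 fold change in LacZ cells was 1.93 (SE 0.46), or 3.81-fold, and the authors' deposited table gave it an adjusted p of 0.000497.

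The 3 strongest regions rose with RNase H in every cell group. The same 5 regions had the highest base means in each table. At 9215410 to 9215774, with a base mean of 123659, LacZ cells had group means of 15.16 with RNH- and 17.26 with RNH+. The same pair was 15.53 and 17.50 for hrp36, and 15.84 and 17.75 for hrp48 cells. All RNH+ levels of this region were above all RNH- levels, and within each state LacZ was the lowest and hrp48 the highest. On the log2 scale its changes in the authors' deposited table were 1.72 for LacZ (adjusted p 0.00186), 1.44 for hrp36 (adjusted p 0.0125) and 1.57 for hrp48 cells (adjusted p 0.00860), with an SE of 0.49 throughout.

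The next regions in signal behaved alike in direction. The region at 28929685 to 28929970, with a base mean of 79499.6, rose on the log2 scale by 1.58 for LacZ (adjusted p 0.00381), 1.29 for hrp36 (adjusted p 0.0265) and 1.42 for hrp48 cells (adjusted p 0.0147) according to the authors' deposited table, with an SE of 0.49 throughout. The region at 28604016 to 28604373, with a base mean of 62682, went from 14.22 to 16.27 in LacZ cells, while hrp36 cells had 14.52 and 16.49 and hrp48 cells 14.90 and 16.77. It was called higher in each. The regions at 27923384 to 27923824 and 26185616 to 26186096 were called higher in LacZ and hrp48 cells. In hrp36 cells neither was called: the authors' deposited table gave an adjusted p of 0.111 for the former (log2 fold change 0.95, SE 0.47) and of 0.101 for the latter.

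**Figure D3:**
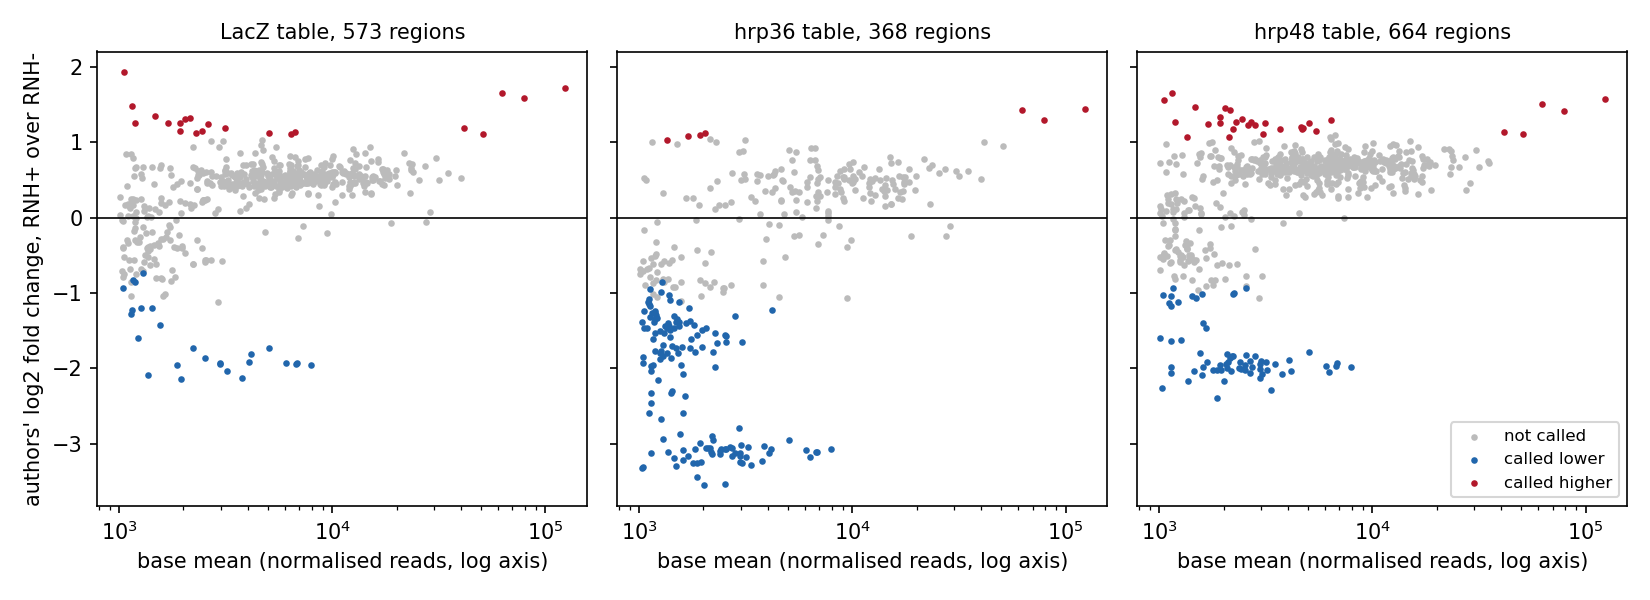
Authors' deposited log2 fold change (RNH+ over RNH-) against base mean (normalised reads, log axis) for the 573, 368 and 664 high-signal Uextra regions of the LacZ, hrp36 and hrp48 tables; colour gives the authors' call at an adjusted p under 0.05. Regions with a base mean from 8000 to 16000 hold no call in any table, and the called falls lie below that.

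For hrp36 cells the authors' deposited table called 141 of the 368 regions lower (38.3%) and 7 higher (1.90%), where 44.9% of all its regions were lower and 5.34% higher by the same rule. The share of falls was thus no higher than that of the table as a whole, and that of rises was lower on the deposited scale. Of the 278 regions outside Uextra with a base mean of at least 1000, 56.5% fell. The median log2 fold change of the high-signal Uextra regions was -0.50 (quartiles -1.59 and 0.46, median SE 0.45), against -0.75 over the table. This median joins bands that differ: the lower band had a median of -3.08, the upper band 0.50, and the regions between -1.11. It also depended on the border. With a base mean of at least 2000 it was 0.34 over 227 regions.

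How the calls of hrp36 cells divided by direction turned on the scale. After centring on the chromosome arm median (-0.61), the Wald test called 97 regions lower and 89 higher, so that 52.2% of its calls were falls, against 95.3% in the authors' deposited table. Without centring it called 152 lower and 12 higher (92.7% falls), where 49.7% and 6.48% of all regions were called. Over all regions of the table the centred test called 24.7% lower and 17.9% higher. The 89 rises are 24.2% of the high-signal regions, so with centring their share of rises was above that of the table, the reverse of the deposited scale. The centred counts take the arms as unchanged, which was not tested.

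The largest fall in hrp36 cells was at 27225217 to 27225648. Its level went from 12.32 to 8.26 in hrp36 cells, while LacZ cells had 11.19 and 8.68 and hrp48 cells 11.28 and 8.74. The RNH- level of hrp36 cells was the highest of the 6 and its RNH+ level the lowest. The log2 fold change in hrp36 cells was -3.55 (SE 0.43), an 11.7-fold fall with an adjusted p of 3.92e-13 according to the authors' deposited table. At 28477424 to 28477843 hrp36 cells went from 12.71 to 8.49, LacZ cells had 11.41 and 8.95, and hrp48 cells 11.47 and 9.02. The authors' deposited table gave -3.53 for hrp36 cells there (SE 0.47, adjusted p 3.00e-11). The same order of levels was seen there. The 3 following falls, which began at 26566201, 13796996 and 15250343, measured -3.44, -3.32 and -3.31 by the authors' deposited table. The rises of hrp36 cells were led by 3 of the 5 strongest regions, followed by 28522046 to 28522364 with log2 fold changes of 1.12 (SE 0.46, adjusted p 0.0456) and 13789596 to 13789997 with 1.09 (SE 0.44, adjusted p 0.0370), both from the authors' deposited table.

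For hrp48 cells the authors' deposited table called 68 of the 664 regions lower (10.2%) and 31 higher (4.67%), where the same rule called 44.6% of all its regions lower and 5.71% higher. Of the 3451 lower calls of that table, 68 thus lay at these regions. Among the lower-signal Uextra regions without an hrp48 excess, 391 of 1638 (23.9%) were called lower, and among the 312 regions outside Uextra with a base mean of at least 1000 it was 2.88%. The median log2 fold change of the high-signal regions was 0.63 (quartiles 0.15 and 0.75, median SE 0.47), against -0.82 over the table. Falls made up 68.7% of these calls. Centring on the arm median (0.23) gave 90 lower and 20 higher in the Wald test (81.8% falls), and no centring gave 75 and 37 (67.0% falls), where 49.3% and 6.48% of all regions were called. Over the whole table the centred test called 59.3% lower and 3.57% higher.

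The largest fall in hrp48 cells was at 26566212 to 26566669, which was among the leading falls of hrp36 cells as well. Its level went from 10.996 to 8.19 in hrp48 cells, while hrp36 cells had 12.28 and 8.22 and LacZ cells 10.51 and 8.47. The authors' deposited table gave -2.39 for hrp48 cells (SE 0.49, adjusted p 0.000150). The RNH- levels of this region ranked from LacZ over hrp48 to hrp36, while the RNH+ levels were close. At 7598873 to 7599103 hrp48 cells went from 12.005 to 9.23, hrp36 cells had 13.08 and 9.22, and LacZ cells 11.93 and 9.41. The authors' deposited table gave -2.29 for hrp48 cells there (SE 0.47, adjusted p 0.000111). The leading rise was at 5794865 to 5795182, which the authors' deposited table put at 1.65 on the log2 scale (SE 0.42, adjusted p 0.00140). Its level went from 8.99 to 10.77 in hrp48 cells, and it was 9.32 and 10.55 in hrp36 and 8.96 and 10.70 in LacZ cells.

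The tables did not list the same regions of each band. Of the 412 upper band regions of the LacZ table, 411 overlapped a listed region of the hrp48 table but 160 (38.8%) one of the hrp36 table. Of all 6477 regions of the LacZ table, 3239 and 2386 (36.8%) did so, and of its Uextra regions 83.1% and 70.2%. The share in the hrp36 table was thus near that of the whole table and below that of Uextra. Of all LacZ table regions that met the definition of the upper band, 44.9% and 18.9% did so. The high-signal regions of this band were thus listed in both other tables more often than regions of any signal with the same definition. Of the 64 lower band regions of the hrp36 table, 59 overlapped a listed region of the hrp48 table but 27 (42.2%) one of the LacZ table, where 79.5% and 73.0% of all hrp36 regions did. Regions of any signal that met the definition of the lower band were at 85.4% and 47.0%, so this difference was not particular to the high-signal ones. The regions between the bands were listed nearly everywhere, with 97.8% of those of the LacZ table overlapping an hrp36 region, against 44.2% of all LacZ regions that lay between the bands. Since regions are named after their cell group and Un, each table is taken to list what the RNH- libraries of its own cell group showed. The median of a table therefore also reflects which bands it lists: the response of hrp36 cells had a median of 0.64 over the 573 regions of the LacZ table and of -0.53 over the 368 of the hrp36 table, although both come from the same libraries.

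The RNH- levels were compared between cell groups as medians over regions, without a test, since group means carry no spread. In the LacZ table the hrp36 minus LacZ difference was 0.14 (quartiles 0.00 and 0.52), above 0 at 432 of 573 regions (75.4%, against 39.8% of all regions). The hrp48 minus LacZ difference, which the rule used, was 0.18. Over the chromosome arm regions of any signal in that table these medians were -0.31 and -0.48. Relative to them the high-signal regions stood 0.45 and 0.66 higher. Arm regions with a base mean of at least 1000 had RNH- medians of 11.42 for LacZ, 12.33 for hrp36 and 11.30 for hrp48 cells. The high-signal Uextra regions had 11.70, 11.85 and 11.88. Beside arm regions of that base mean, the higher standing for hrp36 cells was thus not seen. The tables favour regions that were high in RNH- of their own cell group, and over the 368 regions of the hrp36 table the hrp36 minus LacZ difference was 0.56 on these regions and 0.40 on the arms.

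The levels of the cell groups were compared in order. Across the 573 regions of the LacZ table, Pearson's r between RNH+ group means was 0.994 for LacZ and hrp36, 0.991 for LacZ and hrp48 and 0.997 for hrp36 and hrp48 (Spearman's rho 0.996, 0.995 and 0.998). Between RNH- means it was 0.989 for LacZ and hrp48 (rho 0.992), close to the RNH+ value of this pair, but 0.939 for LacZ and hrp36 (rho 0.942) and 0.920 for hrp36 and hrp48 (rho 0.928). The lower values thus belonged to the pairs with hrp36. Between RNH- and RNH+ of LacZ cells r was 0.878 (rho 0.911). These correlations are across regions, which share libraries and possibly reads, and are given as a description. The RNH+ level of hrp48 cells was above that of LacZ cells by a median of 0.41 over these regions and of 0.10 over the arms.

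The size of the response was compared between cell groups with a Wald test of the difference of 2 deposited log2 fold changes, adjusted by Benjamini-Hochberg over all matched regions of a pair of tables. The deposited fold changes are shrunken, and the test took them and their standard errors as given. A difference of shrunken values need not equal that of the unshrunken responses. Between hrp36 and LacZ cells 315 matched pairs were high-signal regions in both tables, and 0 differed at an adjusted p under 0.05 (smallest adjusted p 0.294), where 2 of all 2165 matched regions did (0.0924%). At an unadjusted p under 0.05, 44 of the 315 (14.0%) had a lower log2 fold change in hrp36 cells and 0 a higher one, against 15.3% and 0.277% of all matched regions, so the high-signal regions were near the background. After centring each table on its arm median, 3 of the 315 were below 0.05 unadjusted and 0 after adjustment. The median difference was -0.33 (quartiles -1.03 and -0.10, median SE of a difference 0.64), beside -0.46 over all matched regions. Between hrp48 and LacZ cells 0 of 568 differed after adjustment and 0 at an unadjusted p under 0.05 by the Wald test. Of all matched regions, 0% and 3.73% did (0.157% lower and 3.58% higher in hrp48 cells). The median difference was 0.15 (quartiles 0.01 and 0.20, median SE of a difference 0.66). These differences spread much less than the standard error that the test used, so it could hardly call a region. The 0 counts of this pair thus do not show equal responses. Between hrp48 and hrp36 cells 0 of 348 differed after adjustment (0% of all matched regions), while 23 were higher in hrp48 cells at an unadjusted p under 0.05 (6.61%, against 11.9% of all matched regions) and 0 were lower (against 0.296%). With centring, 1 of the 348 was below 0.05 unadjusted. With standard errors of this size, a difference of the response of about 1 log2 unit was not resolved at a single region after adjustment. Nor was one of -2.81 between hrp36 and LacZ cells, given below.

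The difference closest to the threshold between hrp36 and LacZ cells, at 2964660 to 2964982, was -2.81, with log2 fold changes of -1.97 (SE 0.62) in hrp36 and 0.84 (SE 0.62) in LacZ cells (Wald test, unadjusted p 0.00127, adjusted p 0.294). The next, at 2274567 to 2275571, was -1.93, from -1.27 and 0.66 (unadjusted p 0.00280, adjusted p 0.294 in the Wald test). Both regions had an opposite sign in the 2 cell groups, and neither passed. They were singled out after their values were seen.

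**Figure D4:**
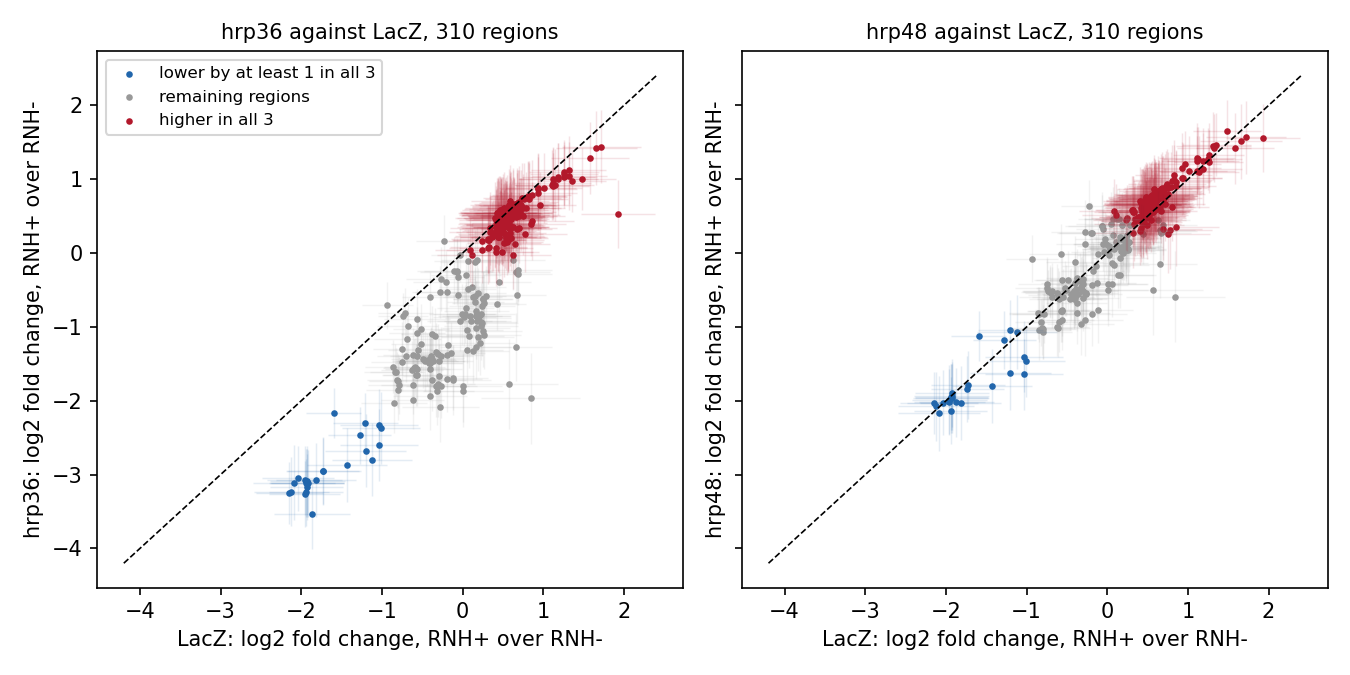
Authors' deposited log2 fold change (RNH+ over RNH-) of hrp36 (left) and hrp48 cells (right) against that of LacZ cells for the 310 regions that met the rule in all 3 tables; bars are the authors' standard errors, colour gives the band and the dashed line is equality. In hrp36 cells the medians of the lower band and of the regions between lie below the line (-3.07 and -1.13 against -1.87 and -0.19 in LacZ cells), and 0 regions passed the test of the difference.

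Of the 310 regions matched in all 3 tables, 22 (7.10%) were called lower and 7 (2.26%) higher in each cell group, where 9.8% and 1.34% of all 1939 regions matched in the 3 tables were. The fold change was lowest in hrp36 cells at 274 of the 310 (88.4%), and after centring each table on its arm median at 95 (30.6%). Over all 1939 matched regions these shares were 84.1% and 32.7%, so the high-signal regions were near the background. By band, hrp36 cells had the lowest value at 25 of 25 regions of the lower band (24 after centring), at 125 of 127 between the bands (69) and at 124 of 158 of the upper band (2). The place of hrp36 cells in the upper band therefore turned with the scale, while in the lower band it held at all but 1 region. Among all matched regions that met the definition of the lower band, hrp36 cells were lowest at 178 of 195, and after centring at 126. For the definition of the upper band it was 236 of 368 (5 after centring), and between the bands 1216 of 1376 (504). The turn in the upper band was thus not particular to the high-signal regions. The shared fall with the smallest value of its largest adjusted p was the region at 28630631 described above, at -2.15 for LacZ, -3.25 for hrp36 and -2.03 for hrp48 cells in the authors' deposited table, each with an SE of 0.42. It was followed by 26370719 to 26371265, at -2.04, -3.05 and -2.03 there, each with an SE of 0.44. The shared rises were led by the 3 regions of highest signal, and the next were 2 neighbours at 13790451 to 13791130 and 13789639 to 13789997. By the authors' deposited table the former rose on the log2 scale by 1.26 for LacZ, 1.08 for hrp36 and 1.24 for hrp48 cells, and the latter by 1.26, 1.09 and 1.33.

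The base mean border cut through a continuous range. Just inside it in the LacZ table were 21876077 to 21876655 and 6038208 to 6038780, with base means of 1007 and 1009.8 and log2 fold changes of 0.27 and 0.04. Just outside were 7070672 to 7071477 and 16844755 to 16845236, with base means of 991.2 and 987.5 where the authors' deposited table gives -0.23 and -2.04. Nearest to the difference border, from inside, were 2 of the strongest regions, at 9215410 and 28604016, with an hrp48 minus LacZ RNH- difference of 0.68 at each.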

How the data were processed

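Sonicated genomic DNA, purified by phenol-chloroform, was the starting material, per the labels' protocols. The submitters' processing notes name dm3, Bowtie2 2.2.2, MACS 1.4.2 and DESeq2, with no order or settings. The 3 tables that the authors deposited hold region values: group means in log2, a base mean (a normalised signal), a shrunken log2 fold change with its standard error, a Wald score, a score of -1, 0 or 1 for calls, and each region's p-value before and after adjustment. Columns ending in Un and Tr were read as RNH- and RNH+. With a pseudocount of 1, back-transformed group means exceeded the base mean, on average over groups, at 0 regions. The authors' adjusted p-values differ from a Benjamini-Hochberg adjustment of the listed p-values by up to 0.138, and their making is not stated. No counts per library were used.

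The rule, the bands, the regions and the tests were chosen with earlier results of these data known. Named regions are, per table, the 5 highest base means and the 5 largest called falls and rises, the 5 leading shared falls and rises, those whose response differs between tables, and the nearest to each border. Tables were matched by an overlap of at least 1 base, each other's best. For the difference of 2 responses a Wald statistic served (normal approximation, authors' standard errors), checked on simulated data. The simulated noise was drawn at these standard errors, and the differences seen between hrp48 and LacZ cells spread less than that. Alternatives were other thresholds, borders, centring, adjustment, overlap and joined stretches. Chromosome arms are 2L, 2R, 3L, 3R and X in full. Gene symbols of hrp36 and hrp48 come from RefSeq synonyms. Calculations used pandas 2.3.3 and NumPy 2.4.6, SciPy 1.17.1 for tests and Matplotlib 3.10.9 for plots, under Python 3.11.15.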

Additional observations from a re-analysis of the deposited data

How the results depend on the processing

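No paired analysis was possible because the tables give group means and carry no values per library, and for the same reason no library could be left out. Depth is unknown, and the standard errors, at a median near 0.47, limit what a single region shows. Raising the base mean border to 2000 took the share of regions called lower from 4.54% to 2.95% in LacZ and from 38.3% to 21.1% in hrp36 cells, and lowering it to 500 gave 9.66% in LacZ cells. At that border the hrp36 median was -0.98, and at 2000 it was 0.34. The share called higher was 5.58%, 3.26% and 8.13% in LacZ, hrp36 and hrp48 cells at an adjusted p under 0.1, and 1.4%, 0% and 0.753% under 0.01 (authors' DESeq2 values; 7 regions, or 1.90%, were higher in hrp36 cells under 0.05). Adjustment over the listed p-values gave 1.92% in LacZ and 3.26% in hrp36 cells, and the Wald test 1.75% and 3.26%. With arm centring the Wald test gave 2.09%, 24.2% and 3.01% in the same order of cell groups. A difference border of 0.5 gave 1.13% in hrp36 cells. Arm centring moved the hrp36 median to 0.11, the hrp48 minus LacZ RNH- difference of the LacZ table to 0.66, and the hrp48 minus hrp36 RNH- difference of the hrp36 table from -0.56 to 0.12; at a border of 2000 the last was -0.0062. The cause of these shifts was not tested. The numbers of regions that differed between tables stayed at 0 with a reciprocal overlap of 50% and with centring (Wald test). At an unadjusted p under 0.05, the overlap rule gave 43, 0 and 22 regions and centring 3, 1 and 1, for hrp36 against LacZ, hrp48 against LacZ and hrp48 against hrp36, where the setting reported above gave 44, 0 and 23.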
